A study of Mus musculus with 8 samples.

Results

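Mouse macrophages that had received interferon-γ (IFNγ) together with antibody-coated red blood cells were compared with macrophages that had received neither. The comparison uses the 2 arrays of each of these groups, chosen by their titles, which makes 4 of the 8 arrays of the series. The cells came from C57BL/6 bone marrow, grown with conditioned medium of the L929 line as the source of M-CSF (30% during growth and 15% after replating on day 7), and were stimulated on day 8 for 6 h. The group with both stimuli received IFNγ at 10 ng/ml and sheep red blood cells opsonised with IgG2a, the antibody of the TIB111 hybridoma, at 10 red cells per macrophage. The unstimulated group received neither agent, and M-CSF from the conditioned medium was common to all groups. The remaining 4 arrays hold IFNγ alone (2 arrays) and opsonised cells alone (2 arrays), and their values are given beside those of the comparison. No group received unopsonised red cells or free antibody, so the antibody coat and the red cell itself cannot be told apart. The labels do not say whether the 2 arrays of a group came from separate mice or cultures, so the p-values measure the spread between these arrays, which may be technical.

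IFNγ binds a receptor that signals through Janus kinases, and many promoters of its target genes hold a palindrome called GAS. Some of those targets are interferon regulatory factors (IRFs), which bind a longer direct repeat, the interferon-stimulated response element (ISRE), and carry the response further. IgG on a red cell clusters Fcγ receptors, whose ITAM motifs recruit the kinase Syk and start engulfment. The eaten red cell then delivers haemoglobin, from which heme oxygenase 1 frees iron, and NRF2, the transcription factor of the antioxidant response, binds the antioxidant response element (ARE). Macrophages grown in M-CSF are dividing cells, and genes of mitosis and S phase are kept in step by promoter elements such as the cell cycle homology region (CHR) and paired CCAAT boxes.

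The 250 bases before the RefSeq start of 6 genes show these elements in genes that moved strongly here. Irf1, Isg15 and Gbp5 stand for the interferon response, Gclm for the antioxidant response, and Cdc20 and the histone gene H2ac12 for the genes that fell. Sequences are RefSeq, build GRCm38.p6, printed 5′ to 3′ on the strand of the gene, with the letters of the matched elements in capitals.
Irf1, chr11:53769764-53770013, plus strand, a GAS match: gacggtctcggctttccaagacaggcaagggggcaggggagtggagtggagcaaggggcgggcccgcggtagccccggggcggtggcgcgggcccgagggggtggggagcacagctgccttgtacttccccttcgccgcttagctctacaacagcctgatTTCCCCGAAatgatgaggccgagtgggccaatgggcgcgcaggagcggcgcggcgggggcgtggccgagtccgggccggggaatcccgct
Isg15, chr4:156200819-156201068, minus strand, 3 overlapping ISRE matches: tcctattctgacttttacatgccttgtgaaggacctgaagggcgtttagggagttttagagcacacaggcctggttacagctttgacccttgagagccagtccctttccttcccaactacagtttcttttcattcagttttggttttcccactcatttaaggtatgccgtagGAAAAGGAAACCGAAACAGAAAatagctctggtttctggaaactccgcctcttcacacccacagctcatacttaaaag
Gbp5, chr3:142496684-142496933, plus strand, 2 GAS matches, an ISRE match and a κB match: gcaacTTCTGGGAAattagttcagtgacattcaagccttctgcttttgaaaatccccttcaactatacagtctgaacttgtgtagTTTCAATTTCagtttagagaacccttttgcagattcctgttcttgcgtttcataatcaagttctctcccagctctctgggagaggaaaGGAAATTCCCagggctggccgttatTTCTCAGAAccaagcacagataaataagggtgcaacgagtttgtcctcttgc
Gclm, chr3:122245307-122245556, plus strand, an ARE match: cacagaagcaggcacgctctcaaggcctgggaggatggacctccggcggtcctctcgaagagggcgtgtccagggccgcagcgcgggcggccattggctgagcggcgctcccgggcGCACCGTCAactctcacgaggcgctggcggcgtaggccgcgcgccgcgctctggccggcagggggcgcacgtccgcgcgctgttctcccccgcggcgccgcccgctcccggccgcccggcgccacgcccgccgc
Cdc20, chr4:118437344-118437593, minus strand, a CHR match between 2 CCAAT boxes: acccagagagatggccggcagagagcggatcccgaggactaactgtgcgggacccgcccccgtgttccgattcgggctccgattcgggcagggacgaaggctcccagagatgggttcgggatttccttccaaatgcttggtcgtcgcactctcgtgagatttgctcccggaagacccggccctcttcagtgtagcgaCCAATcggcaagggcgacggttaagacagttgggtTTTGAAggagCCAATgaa
H2ac12, chr13:22035644-22035893, minus strand, 3 CCAAT boxes: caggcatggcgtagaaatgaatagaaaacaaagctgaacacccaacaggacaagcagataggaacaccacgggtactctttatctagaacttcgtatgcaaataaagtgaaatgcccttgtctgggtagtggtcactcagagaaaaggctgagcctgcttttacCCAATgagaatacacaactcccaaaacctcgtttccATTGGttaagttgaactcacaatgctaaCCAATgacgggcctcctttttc

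The elements were searched on both strands as TTCNNNGAA (GAS), GAAA, any 2 bases and GAAA (ISRE), GGGA, any 1 base and TTTCC (κB), TGACNNNGC (ARE), TTTGAA (CHR) and CCAAT, in windows from 250 bases before to 50 after each start. The E2F letters GGCGGGAA were searched in the same way. A match is a run of letters and not a shown binding site. RefSeq windows were at hand for 7076 of the 8634 named genes tested (9080 windows, since some genes have several starts). The GAS match in Irf1, a transcription factor of the interferon response, began 90 bases before the start. In Isg15, an antiviral ubiquitin-like protein, the overlapping ISRE matches began 78, 72 and 66 bases before the start. Gbp5, a GTPase that acts on intracellular pathogens, held GAS matches at 245 and 52 bases, ISRE letters at 165 and κB letters at 77. In Cdc20, an activator of the anaphase-promoting complex, the CHR letters began 18 bases before the start and the CCAAT boxes 53 and 8 bases before it.

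ISRE letters stood in 61.5% of the 13 windows of the antiviral genes called higher and in 3.22% of the windows of all tested genes. Among the windows of genes at least 2-fold higher with both stimuli (321 windows), 11.5% held ISRE letters, against 2.91% of the 206 windows of genes at least 2-fold lower. GAS letters stood in 12.8% and 7.77% of the same windows and in 7.26% of all tested. On the repressed side, CHR letters stood in 76.9% of the 26 windows of mitosis genes called lower and in 12.3% of all tested windows. In the 35 windows of DNA replication genes called lower, CHR and E2F letters each stood in 17.1%. E2F letters stood in 3.76% of all tested windows and in 0.0% of the mitosis windows. CCAAT stood in all 15 windows of the histone genes called lower (100%), in 69.2% of the mitosis windows and in 38.0% of all tested. Several histone windows are near-copies of each other and are not independent. ARE letters, which occur in 14% of all tested windows, stood in 29.4% of the 17 windows of NRF2 targets called higher, and κB letters in 27.3% of the 11 windows of NF-κB feedback genes against 0.474%.

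**Figure D1:**
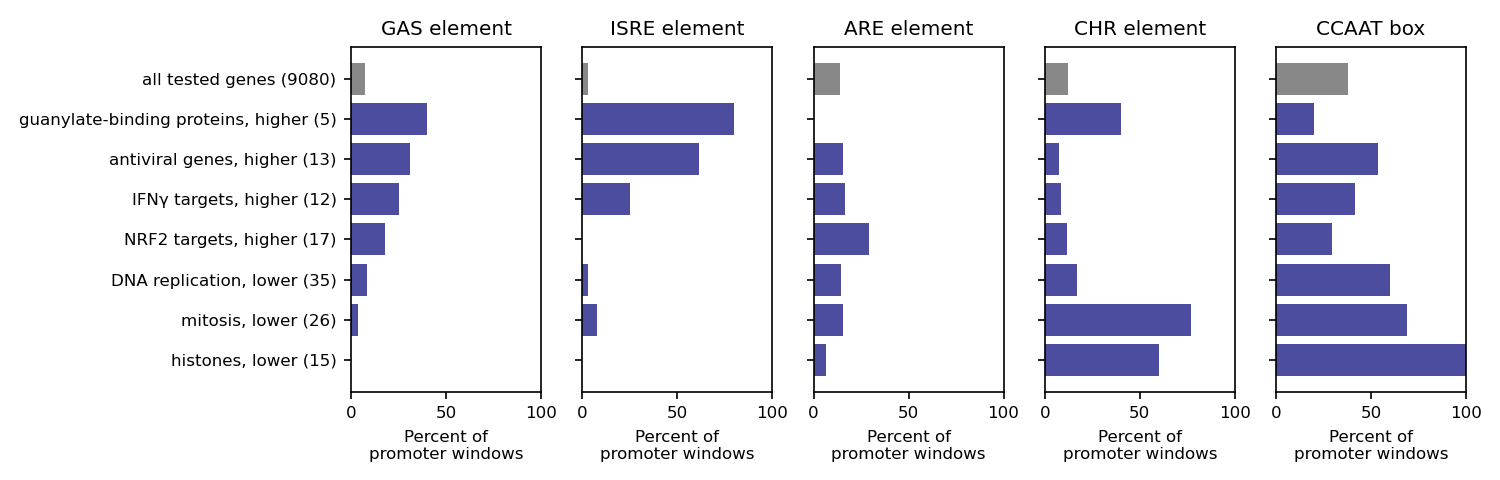
Share of RefSeq promoter windows (250 bases before to 50 after the start, percent on the horizontal axes) that hold the letters of each element, for all tested genes (grey) and for gene groups called in the comparison (blue, number of windows in brackets). ISRE letters are most frequent in the guanylate-binding protein and antiviral windows (80% and 61.5%), and CHR letters in the mitosis windows (76.9%).

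Each array reports 25697 probes. The deposited intensities had been quantile-normalized, ran from 120 to 35989, and were analysed on the log2 scale. A floor of 200, set from the background mode of the arrays, left 12333 probes (48.0%), and the brightest probe of each gene gave 9356 features, of which 8634 carry a gene name. Across all 25697 probes, Pearson's r on the log2 scale was 0.992 to 0.994 within groups and 0.952 between the arrays with both stimuli and the unstimulated ones. Tests were limma's moderated tests with Benjamini-Hochberg adjustment over all 9356 features, and "called" means an adjusted p under 0.05. In the gene lists below, "measured" counts genes above the floor on both arrays of some group, so genes dim in every group are left out. A gene can enter only through the group where it is high, so shares of higher members do not hold for all listed genes. For the cell type markers "measured" counts all genes on the array. All 6 macrophage markers measured (of 10 listed) lay above the floor, including Cd14 and Mertk. None of the 10 T and NK cell markers measured did (summed level 1781 to 1818 unstimulated and 1752 to 1756 with both stimuli, for 10 probes at or near the floor of 200 each). Of the 7 erythroid markers measured 6, among them Alas2, Hba-a1 and Klf1, were not above the floor. Neutrophil markers stood higher, with 7 of 11 above the floor and a summed level of 4346 to 4609 unstimulated and 5476 to 5605 with both stimuli, and their part in the results was not tested. In RNA from a whole culture, fewer cells of a type and less RNA per cell cannot be told apart.

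With both stimuli 1356 features were called higher (14.5%) and 1923 lower (20.6%), so 35% of features were called. These shares are to be read beside the counts of gene groups against unstimulated cells. The rises were fewer but reached further. Of the higher features 340 were at least 2-fold up (3.63% of those tested), 97 more than 4-fold, 36 more than 8-fold and 16 more than 16-fold. Of the lower features 211 were at least 2-fold down (2.26%), 12 more than 4-fold, and the largest fall was 7.19-fold (St6gal1). Together 551 features (5.89%) changed at least 2-fold. Against IFNγ alone 1301 features were called (13.9%) and 118 were called at least 2-fold apart (1.26%), of which 76 were higher (0.812%) and 42 lower (0.449%). Against opsonised cells alone 2577 were called (27.5%) and 351 at least 2-fold apart (3.75%), of which 248 were higher (2.65%) and 103 lower (1.1%). Against unstimulated cells the median log2 difference was 0.56 among features called higher and -0.50 among features called lower, with a median standard error of 0.11 on this scale. The split between higher and lower calls depends on the scaling: under cyclic loess 1613 were higher and 1530 lower, which is 51.3% higher in place of 41.4%. When the features were split by brightness into 3 equal bins, 10 in the dimmest bin (median intensity 211) were called at least 2-fold higher and 1 at least 2-fold lower, against 213 and 143 in the brightest. The 2 arrays of both groups did not overlap for 3274 of the 3279 called features, and for 65.5% of all features.

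**Figure D2:**
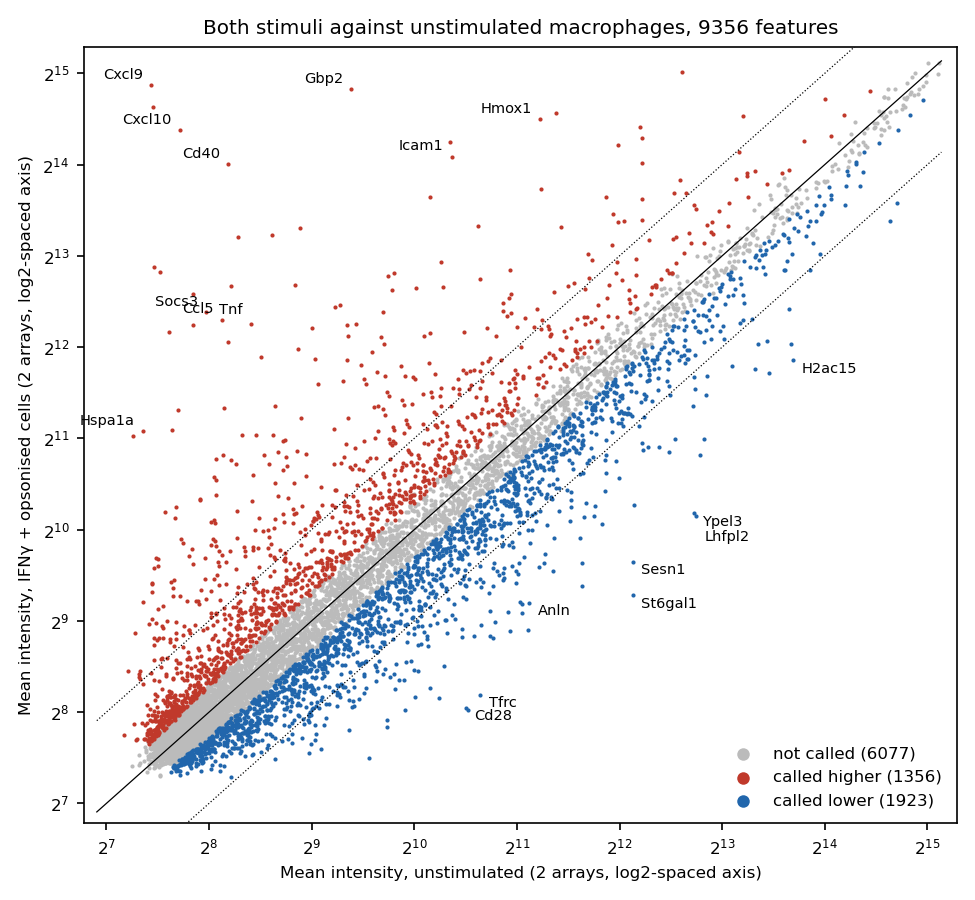
Mean intensity with both stimuli (vertical) against mean intensity unstimulated (horizontal) for 9356 features, each mean over 2 arrays, on log2-spaced axes, with features called higher in red and lower in blue. The solid line marks equal intensity and the dotted lines a 2-fold difference; rises such as Cxcl9 leave the diagonal much further than the falls, the largest of which is St6gal1.

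The tallest rises were chemokines that attract T cells and NK cells through CXCR3. Cxcl9 read 179 and 167 on the unstimulated arrays and 30374 and 29424 with both stimuli. Its unstimulated level lay under the floor, so the rise was at least 149-fold (adjusted p = 3.49e-24). Cxcl10, a ligand of the same receptor, went from 195 and 226 to 21029 and 21510.2, 101-fold (log2 6.66 ± 0.11 SE, n = 2 arrays a group). For Cxcl10, as for Ccl8, Bak1 and Lcp2 below, 1 of the 2 unstimulated arrays lay under the floor, and the fold is that of the measured means. With IFNγ alone the mean levels of Cxcl9 and Cxcl10 were 20256 and 16409, and with opsonised cells alone 201 and 452. Their levels with both stimuli were 1.48- and 1.3-fold above IFNγ alone (adjusted p = 0.000449 and 0.0304). The upper end of the intensity scale was near for both genes, as for all 91 features whose mean passed 17994 in a group, and whether this compresses their folds was not tested. Some gene families named here (guanylate-binding proteins, MHC, histones, Hspa1a, Fcγ receptors) have near-identical copies whose transcripts a probe may share.

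Among CC chemokines, 6 of 9 measured were called higher and 2 lower. Ccl5, which recruits T cells and monocytes, read 299 and 262 unstimulated and 4785 and 5321 with both stimuli (18-fold, adjusted p = 1.17e-17). Neither stimulus alone brought it near that level, with 669.6 and 709 under IFNγ and 267 and 353 under opsonised cells. The level with both stimuli exceeded each of these (adjusted p = 1.13e-13 and 3.58e-17). The chemokines Ccl8, Ccl12 and Ccl7 rose 12.2-, 9.25- and 4.41-fold, and their means with IFNγ alone were 2021, 6143 and 1985, beside 2546, 5555 and 1691 with both. Ccl6 and Ccl9, chemokines that resting macrophages make, fell from 2596 and 2046 to 1339.6 and 1359 and from 14348 and 14600.2 to 9061 and 10055. The neutrophil-attracting Cxcl2 and Cxcl1 followed the other stimulus. Cxcl2 rose from 215 and 190.5 to 728 and 668, while its means were 180.0 with IFNγ alone and 977 with opsonised cells alone, and Cxcl1 rose from 268 and 274 to 726 and 729 with 224 and 918. Both stood lower with both stimuli than with opsonised cells alone (adjusted p = 0.00324 and 0.0417).

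The interferon-inducible GTPases that passed the floor rose as a block. All 5 guanylate-binding proteins measured were called higher, with a median log2 difference of 3.77 against -0.03 over all features. The array holds 9, and those that passed the floor in no group were left out. Without the filter on dim probes 5 of the 9 were called higher, with a median of 2.11. Gbp2 went from 669.6 and 667 to 29099 and 28881 (43.4-fold), Gbp3 from 379 and 403 to 9669.9 and 9466 (24.5-fold), and Gbp5, whose promoter is printed above, from 145 and 162, under the floor, to 2086 and 2089.7 (at least 10.4-fold). Of the immunity-related GTPases, which attack the vacuoles of parasites and bacteria, 5 of 6 were higher. Igtp read 452 and 496 unstimulated and 10475 and 9758 with both, Ifi47 280.0 and 301 and 4021 and 4517, and Irgm1, a regulator of the other family members, 5082 and 4494 and 20619 and 19614. With IFNγ alone Gbp2 stood at 27396 and 27396 and Gbp3 at 9022 and 9009, and the difference between both stimuli and IFNγ alone was log2 0.08 ± 0.10 and 0.09 ± 0.10 SE, not called. Gbp2 lay near the upper end of the scale in both groups, and whether this hid a difference was not tested. Gbp5 was the member called higher with both stimuli than with IFNγ alone (2086 and 2089.7 against 1216 and 1364, adjusted p = 0.000173).

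The transcription factors that drive such genes rose too, 9 of 10 IRF and BATF family members. Irf1 increased from 2741 and 2599 to 25949 and 22776 (9.11-fold), and Irf8, a factor of the myeloid lineage, from 500.0 and 357 to 1864 and 2151 (4.74-fold). Batf2, a partner of Irf1 in macrophages, stood under the floor unstimulated (195 and 196) and at 4448 and 4764 with both stimuli, at least 23-fold higher. It was also higher than with IFNγ alone, where it read 3132 and 3113 (adjusted p = 0.00119). Batf3, better known from dendritic cells, rose 3.31-fold from 261 and 237 to 842 and 806. Of 10 listed dendritic cell markers 8, among them Flt3, Zbtb46 and Xcr1, were not above the floor in either group. The others were Batf3 itself and Clec9a, which was not called (log2 0.10). The summed level of the 10, with Batf3 in it, was 1786 to 1899 unstimulated and 2355 to 2386 with both stimuli.

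All 18 antiviral interferon-stimulated genes measured were higher, with a median log2 difference of 1.32. Without the filter on dim probes 19 of 21 were higher, with a median of 1.17. Ifit2, which binds foreign RNA, rose from 456 and 457 to 6722 and 6401 (14.4-fold), Isg15 from 573 and 669 to 5827 and 5445 (9.1-fold) and Rsad2, the enzyme viperin, from 1090.2 and 1382 to 7998 and 7653 (6.37-fold). Cmpk2, a mitochondrial nucleotide kinase, rose 4.86-fold. Against IFNγ alone 3 of the 18 were higher and 1 lower, where 6.46% and 7.45% of all features were. Against opsonised cells alone 17 were higher, where 11.3% of all features were higher and 16.2% lower. Rsad2 read 2330.2 and 3846 with opsonised cells alone, above both unstimulated arrays, and 5399 and 5363 with IFNγ alone. Parp14, an ADP-ribosyltransferase of the interferon response, rose from 2467 and 2356 to 12622 and 14715, and Trim30a and Trim21, ubiquitin ligases of the same response, rose 3.26- and 2.71-fold. Other TRIM ligases fell, including the corepressor Trim28 (2227 and 2174 to 1233 and 1309.8) and Trim32 (1.71-fold lower). Of 12 TRIM genes 5 were higher and 4 lower, and the count of higher members was 2 without unstimulated replicate 2 and 3 without replicate 1 of both stimuli.

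Signalling genes of the interferon pathway rose more often than they fell. Of 18 Janus kinase, STAT and SOCS genes measured 9 were higher and 2 lower, with a median log2 difference of 0.40. Socs3, an inhibitor of cytokine receptor signalling, read 255 and 248 unstimulated and 5212 and 5470.5 with both (21.3-fold), and Cish, of the same family, 209 and 249.6 and 838 and 932. The transcription factors Stat2 and Stat3 rose 2.91- and 2.64-fold. Ifngr1, the ligand-binding chain of the IFNγ receptor, fell from 1534 and 1582 to 682 and 698 (2.26-fold lower, adjusted p = 1.42e-08), with means of 826 and 1057 under IFNγ alone and opsonised cells alone. Among all 24 cytokine receptor genes measured 9 were higher and 6 lower, where 14.5% and 20.6% of all features were. Fas, the death receptor, rose 6.55-fold from 322 and 318 to 2121 and 2073 and stood above either stimulus alone (959 and 824, adjusted p = 9.53e-08 and 1.34e-09). The shared chain Il13ra1 rose 3.83-fold and Il10ra 2.22-fold, while the partner chain Il10rb fell 1.93-fold, Tgfbr2 1.8-fold and Il6ra 1.58-fold.

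The inflammatory cytokine Tnf read 366 and 315 unstimulated, 997 and 971 with opsonised cells alone, 2153 and 2391 with IFNγ alone and 4861 and 4906 with both. The 4 groups did not overlap, and the level with both exceeded each other group (adjusted p = 3.34e-18 against unstimulated, 1.8e-07 against IFNγ and 1.07e-13 against opsonised cells). Of 19 cytokine genes measured 12 were called higher. Il1rn, which encodes the antagonist of the IL-1 receptor, rose 10.5-fold from 371 and 354 to 4004 and 3621. Il27, a cytokine that restrains T cells, came from under the floor (173 and 155) to 625 and 562, at least 2.96-fold, and Il15, a survival factor of NK and memory T cells, rose 2.13-fold. Feedback inhibitors and partners of NF-κB rose with them, 10 of 12. Nfkbie and Nfkbia, inhibitors that hold NF-κB in the cytoplasm, went from 261 and 304 to 1944 and 1678 and from 841 and 885 to 2894 and 2757. Tnfaip3, the ubiquitin-editing enzyme A20, went from 205 and 219.8 to 890.0 and 1022, and Traf1, an adaptor of TNF receptors, from 188 and 187 to 645 and 507, at least 2.86-fold. Of these 12 genes 9 were higher than with IFNγ alone and 8 higher than with opsonised cells alone. Of all features 6.46% and 11.3% were higher in these comparisons.

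Surface molecules that speak to T cells were among the largest changes in both directions. Cd40, the receptor for CD40 ligand on T cells, rose 56.5-fold from 287 and 296 to 16440.1 and 16513, with 7164 and 6417 under IFNγ alone and 510.0 and 481 under opsonised cells alone. Cd69, an early activation marker, rose 21.8-fold (290.1 and 306 to 6616 and 6386). Cd274, the checkpoint ligand PD-L1, rose 15-fold from 1323 and 1279 to 19464 and 19464, and Cd86, a ligand of CD28, rose 6.8-fold from 689 and 619 to 4427 and 4455. Cd40 and Cd69 were higher with both stimuli than with IFNγ alone (adjusted p = 6.52e-09 and 7.43e-06), whereas Cd274 differed by log2 0.06 ± 0.10 SE and Cd86 by -0.20 ± 0.11, not called. The Cd274 means of both these groups passed 17994, near the upper end of the scale. Whether this hid a further rise of Cd274 was not tested. Cd28, best known as the receptor of T cells for Cd86, gave signal in these cultures and fell 5.49-fold from 1524 and 1388 to 233 and 302, below 514 and 552 under IFNγ alone and 1219 and 1259 under opsonised cells alone. Sirpa, the receptor for the "do not eat me" signal CD47, fell 1.75-fold from 1935 and 1413 to 986 and 907. In all 8 of 14 such genes were higher and 4 lower. The adhesion molecule Icam1, a ligand of leukocyte integrins, rose 13.2-fold from 1234 and 1417 to 16919 and 17911, above 9466 and 8705 under IFNγ and 3173 and 4221 under opsonised cells. Vcam1, its relative, read 201 and 221 unstimulated and 586 and 651 with both, and with either stimulus alone its means were 199 and 190.3, at or under the floor.

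Antigen presentation rose on the class I and the class II side. For class II, 7 of 8 genes were higher, led by Cd74, the invariant chain (386 and 417 to 2809.5 and 2453, 6.54-fold), H2-Ab1, a class II β chain (241 and 240.1 to 1325 and 1234), and H2-DMa, which loads peptides (828 and 838 to 4101 and 4306). Their transactivator Ciita came from under the floor to 614 and 666, at least 3.2-fold. Cd74 and H2-Ab1 were higher with both stimuli than with IFNγ alone (1579 and 1552 and 849 and 780.4; adjusted p = 7.51e-05 and 0.000305), and opsonised cells alone left Cd74 at 309 and 352. For class I and the immunoproteasome 13 of 17 were higher, among them the transactivator Nlrc5 (5.85-fold) and the peptide transporter chains Tap1 (4.94-fold) and Tap2 (4.00-fold). The constitutive proteasome moved by less but in many subunits: 14 of 26 were higher, with a median log2 difference of 0.39. Psma5, of the core ring, rose 1.96-fold from 9334 and 9022 to 18669 and 17358, and Psmd14, a deubiquitinase of the lid, 1.73-fold. Of the 26 subunits 16 were higher with both stimuli than with IFNγ alone, where 6.46% of all features were. Higher than with opsonised cells alone were 2, where 11.3% of all features were.

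**Figure D3:**
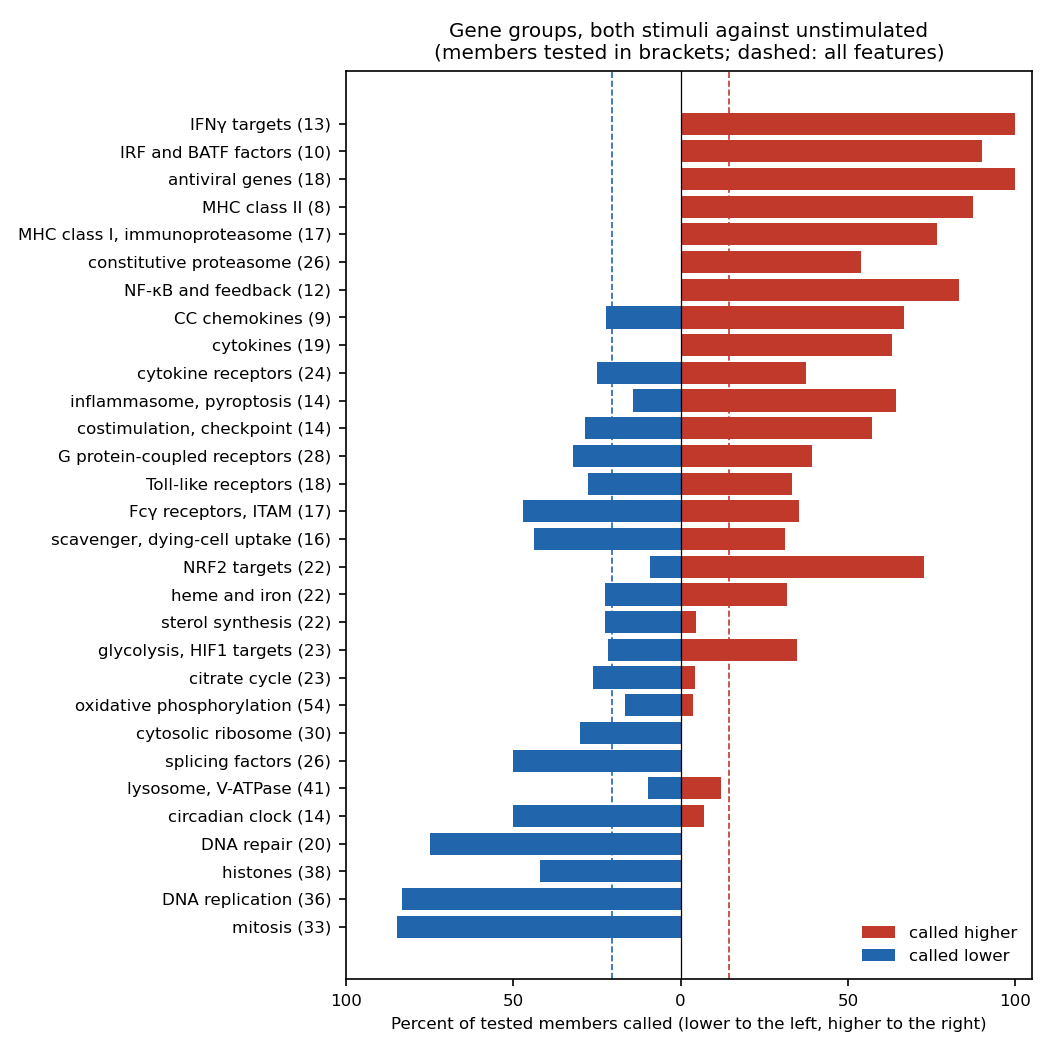
Percent of the measured members of each gene group that were called higher (red, to the right) or lower (blue, to the left) with both stimuli, with the number of members tested in brackets and dashed lines at the shares of all features (14.5% higher, 20.6% lower). The bars of the interferon targets (13 tested of 15 on the array) and antiviral genes (18 of 21) reach 100% on the higher side. Genes dim in every group are left out of the bars. Those of mitosis and DNA replication are the longest on the lower side.

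Receptors that sense microbes and cargo moved in mixed directions. Among 17 Fcγ receptor and ITAM signalling genes 6 were higher and 8 lower. Fcgr4, an activating receptor for IgG2a, rose from 4565 and 4838 to 23141 and 20386 (4.62-fold), and Fcgr1, the high-affinity receptor, from 774 and 826 to 2151 and 2184, below the 3896 and 3721 of IFNγ alone (adjusted p = 7.29e-06). Lcp2, an adaptor downstream of Syk, rose 1.85-fold, and the PI3-kinase catalytic subunits moved apart, Pik3cd 2.26-fold higher and Pik3cg 2.42-fold lower. Sla, an adaptor that dampens antigen receptor signalling in lymphocytes, fell by its brightest probe from 1248 and 1166 to 304 and 269 (4.22-fold). Its 3 probes spanned log2 -2.08 to -0.19. With opsonised cells alone Sla read 1314 and 1347, with IFNγ alone 559 and 558, and the level with both lay below each (adjusted p = 3.31e-13 and 1.73e-06). The inhibitory receptor Fcgr2b fell from 3853 and 4517 to 2853 and 2724, and the phosphatase Inpp5d, which acts below it, 1.51-fold.

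Of 18 Toll-like receptor pathway genes 6 were higher and 5 lower, where 14.5% and 20.6% of all features were. The adaptor Myd88 rose 2.51-fold from 4181 and 4287 to 10443 and 10824, and Irak2, a kinase of the same pathway, 1.89-fold. The nucleic acid sensors of endosomes fell: Tlr13 from 3519.6 and 2936 to 998 and 1275 (2.85-fold), Tlr8 from 494 and 467 to 206 and 215 and Tlr7 from 1877 and 1873 to 1056 and 1094, and so did the lipopolysaccharide coreceptor Cd14, from 8954 and 7678 to 4197 and 4512. In each case the pair of arrays with both stimuli lay below the unstimulated pair. Among C-type lectins 6 of 11 were higher and 2 lower. Clec4e (Mincle), a receptor for mycobacterial lipid and dead cells, rose 6.48-fold from 903 and 756 to 5733 and 4999, beside 4659 and 4893 with opsonised cells alone and 577 and 704 with IFNγ alone. Clec4n (Dectin-2) was likewise lowest with IFNγ alone (mean 2184, with 2858 and 3165 unstimulated). It read 7038 and 6299 with both, near its mean of 7026 with opsonised cells alone. The mannose receptor Mrc1 fell 1.66-fold from 9466 and 9521 to 5686 and 5733.

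The genes for taking up dying cells were split. Axl and Mertk, receptor kinases that bind dying cells through a bridging protein, rose 3.07-fold (2072 and 1679 to 6417 and 5120.2) and 1.56-fold. Gas6, the bridging protein itself, fell 2.58-fold from 11139 and 11031 to 4233 and 4375, and the integrin chain Itgb5 fell 2.01-fold. In all 5 of 16 were higher, a count that was 3 without either unstimulated array or replicate 1 of both stimuli and under centring on housekeeping genes, and 7 were lower.

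Cell death machinery of the inflammasome pathway rose in 9 of 14 genes and fell in 2. Casp4, which senses cytosolic lipopolysaccharide, rose 7.09-fold from 762 and 624 to 4714 and 5073, and Mlkl, the executioner of necroptosis, 5.4-fold from 853 and 788 to 4935 and 3969. Gsdmd, the pore-forming protein of pyroptosis, rose 2.27-fold and Il18, a cytokine released through it, 2.06-fold. Of the death genes of the Bcl2 family and caspases, Bak1 rose 1.97-fold and Bid 1.54-fold, while the activators Bcl2l11 (Bim) and Bbc3 (Puma) fell 2.14- and 1.51-fold. The mean over its probes put Bbc3 at log2 -0.24 with no call (adjusted p = 0.0779). For nitric oxide, Nos2 rose from under the floor (192 and 158) to 631 and 738, at least 3.41-fold. It read 229.6 and 249.7 with IFNγ alone and 183 and 186 with opsonised cells alone, both pairs below the pair with both stimuli (adjusted p = 2.76e-09 and 1.15e-11). Ass1, which rebuilds its substrate arginine from citrulline, rose 5.32-fold from 387 and 404 to 2028 and 2181, beside 624 with IFNγ alone and 1645 with opsonised cells alone. Gch1, the entry enzyme of the Nos2 cofactor tetrahydrobiopterin, rose 1.96-fold.

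Heme and iron genes moved in both directions. Hmox1, the enzyme that opens the heme ring, rose 9.65-fold from 2342 and 2451 to 23327 and 22924. IFNγ alone had lowered it to 919 and 969, and opsonised cells alone had raised it to 26039 and 24684. Slc40a1 (ferroportin), the iron exporter, followed the same order, with 9215 and 9689 unstimulated, 2601 and 2757 under IFNγ, 26321 and 26467 under opsonised cells and 23590.2 and 23754 with both. For both genes the level with both stimuli was higher than with IFNγ alone (adjusted p = 2.19e-20 and 1.53e-17), and the difference from opsonised cells alone was log2 -0.13 ± 0.10 and -0.16 ± 0.09 SE, not called. Both genes lay near the upper end of the scale in these groups, and whether this hid a difference was not tested. Spic, the factor of iron-recycling splenic macrophages, rose from 185 and 201, with 1 array under the floor, to 559 and 469, short of the 983 and 1006 of opsonised cells alone (adjusted p = 1.2e-06). The transferrin receptor Tfrc, which brings iron in, fell 5.47-fold from 1605 and 1592 to 286 and 299. IFNγ alone left Tfrc at 1707 and 1710.5, and opsonised cells alone brought it to 447 and 375, above the level with both stimuli (adjusted p = 0.00296). The divalent metal importer Slc11a2 rose 2.06-fold, and Blvra, which acts after Hmox1 in heme breakdown, fell 1.76-fold. Blvrb, a relative of Blvra, rose by log2 0.66. Of the 22 heme and iron genes 7 were higher and 5 lower, the latter 2 without unstimulated replicate 1, 3 without replicate 2 of both stimuli and 3 under cyclic loess. The lower share was near the 20.6% of all features.

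NRF2 targets were higher in 16 of 22 genes and lower in 2, with a median log2 difference of 0.42. Against IFNγ alone 15 were higher, and against opsonised cells alone 1 was higher and 12 lower. Of all features 6.46% were higher against IFNγ alone, and 11.3% higher and 16.2% lower against opsonised cells alone. Gclm, a subunit of the enzyme that starts glutathione synthesis, rose 6.19-fold from 997 and 1074 to 5628 and 7303, with 603 and 694 under IFNγ and 9245 and 9039 under opsonised cells. Srxn1, which repairs peroxiredoxins, read 1458 and 1748, 591 and 716, 12682 and 14226 and 6518 and 7235 in the unstimulated, IFNγ, opsonised-cell and combined groups. Slc7a11, the cystine importer, rose 4.32-fold from 226 and 204 to 971 and 884, below the 2137 and 2199.9 of opsonised cells alone (adjusted p = 1.98e-08). Dnmt3l, a DNA methyltransferase cofactor of germ cells and not an NRF2 gene, showed the same order with 265 and 272, 215 and 198, 2894 and 2716 and 899 and 909. Among heat shock genes, Hspa1a (HSP70) stood at 158 and 170.0, under the floor, and at 2403 and 1941 with both, at least 10.8-fold higher, with 2365 and 2553 under opsonised cells alone and 146 and 158, under the floor, with IFNγ alone. The constitutive chaperone Hspa8 rose by log2 0.71 ± 0.09 SE.

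**Figure D4:**
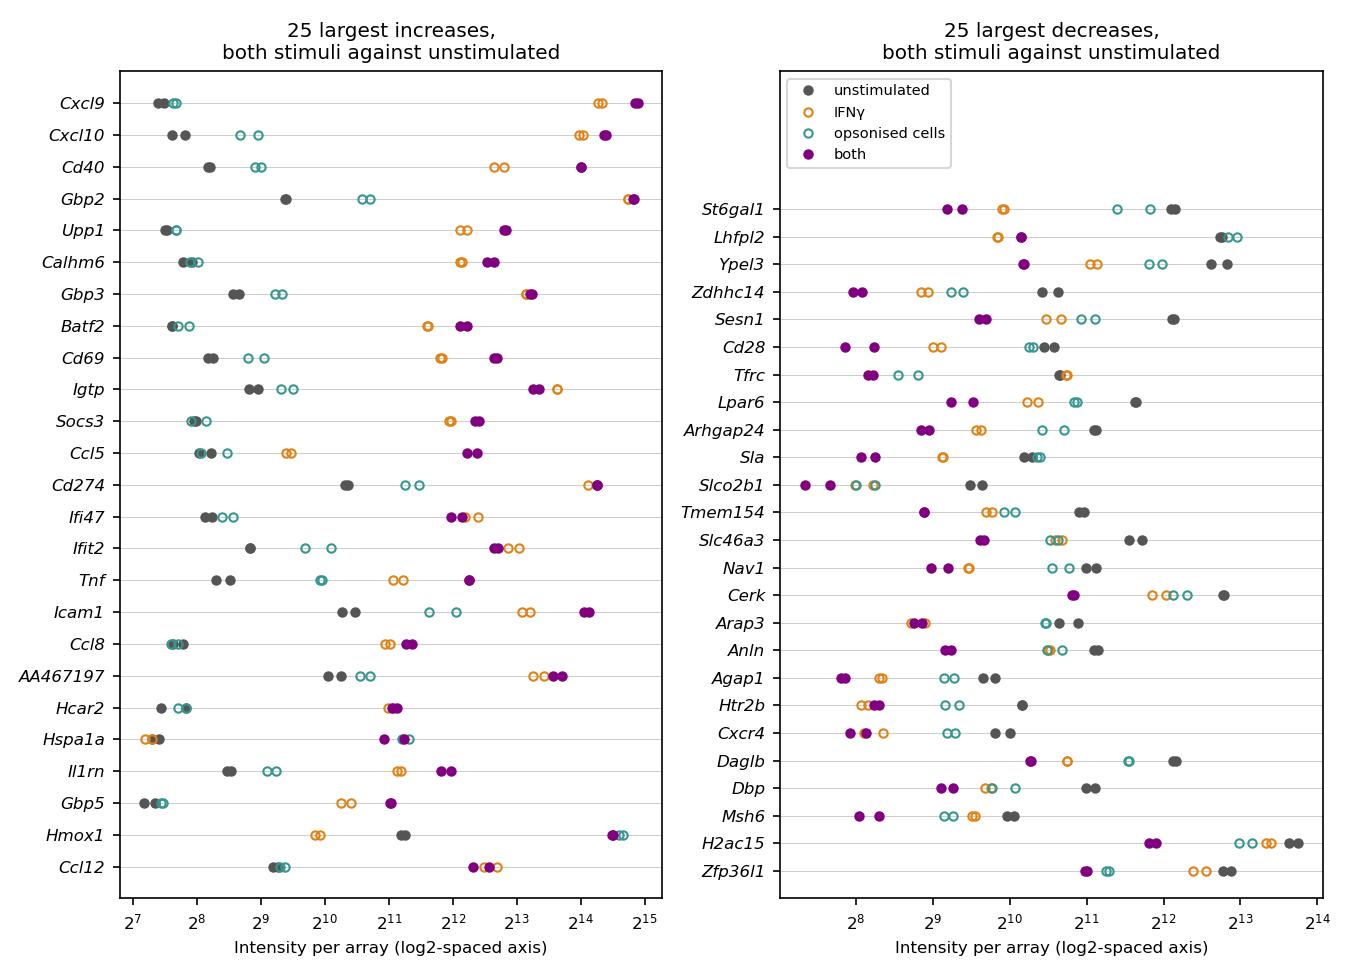
Intensity on each of the 8 arrays (log2-spaced axis) for the 25 named genes with the largest increases (left) and the 25 with the largest decreases (right) in the comparison, with filled points for the unstimulated (grey) and combined (purple) groups and open points for IFNγ alone (orange) and opsonised cells alone (green). For Cxcl9, Gbp2 and Igtp the combined points lie near those of IFNγ alone, for Hmox1 and Hspa1a near those of opsonised cells alone, and for Ccl5 above both; for most of the decreases the combined points lie to the left of both single stimuli.

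Further rises came in receptors, matrix enzymes and nutrient genes. Of 28 G protein-coupled receptor genes 11 were higher and 9 lower. Hcar2, the receptor for niacin and β-hydroxybutyrate, rose from 173 and 229, with 1 array under the floor, to 2246 and 2123, and Fpr2, a receptor for formylated peptides, rose 5.54-fold from 262 and 276 to 1534 and 1443. Ednrb, an endothelin receptor, rose 8.62-fold from 456 and 480.1 to 3781 and 4299, above 2627 and 2229 with opsonised cells alone (adjusted p = 3.35e-05) and 342 and 337 with IFNγ alone. Gpr84, a receptor for medium-chain fatty acids, rose 5.03-fold. Calhm6, of a family of membrane channels, rose 26.7-fold from 219 and 242 to 6369.8 and 5919, and the gene listed as AA467197 11.2-fold from 1064 and 1221 to 13404 and 12170.2. The collagenase Mmp13 rose 7.45-fold from 631 and 669 to 5153 and 4552, below the 6707 and 8329.9 of IFNγ alone, and the membrane protease Mmp14 4.19-fold from 654 and 832 to 3195 and 2987, above either stimulus alone (988 and 1885).

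Metabolic genes moved in both directions. Upp1, uridine phosphorylase, which frees ribose from uridine, rose from under the floor (186 and 181) to 7294 and 7155, at least 36.1-fold. It read 4758 and 4427 with IFNγ alone and 205 and 203 with opsonised cells alone. Among genes of glucose uptake and phosphorylation, Slc2a1 (GLUT1) rose 3.23-fold from 1055 and 974 to 3547 and 3016, Slc2a6, a hexose transporter of lysosomes, 6.52-fold from 1700.2 and 1454 to 9988 and 10524, Hk3 2.64-fold and Hk2 2.33-fold. Pfkp, the platelet-type phosphofructokinase, rose 3.35-fold. Across the 23 glycolysis and HIF1 target genes 8 were higher and 5 lower, the latter 2 under cyclic loess and 2 without unstimulated replicate 1. Their lower share was near the 20.6% of all features. In the citrate cycle and its neighbours 6 of 23 were lower and 1 higher, a lower share near the 20.6% of all features. Idh1, the cytosolic isocitrate dehydrogenase that makes NADPH, fell 2.42-fold from 2941 and 2948 to 1307 and 1132, between 877 and 1003 with IFNγ alone and 4268 and 4124 with opsonised cells alone. Sterol synthesis had 5 of 22 lower (8 with housekeeping centring) and 1 higher, the lower share again near that of all features. Among the lower was Hmgcs1, the enzyme before HMG-CoA reductase (11076 and 10824 to 6929.9 and 7339.6). Pparg, the lipid-sensing nuclear receptor, fell 1.96-fold from 732 and 738 to 378 and 371. The tryptophanyl-tRNA synthetase Wars, an IFNγ-inducible member of its family, rose 5.15-fold from 849 and 694 to 4028 and 3889.

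The 5 largest falls were in genes outside the cell cycle groups. St6gal1, a sialyltransferase that caps N-glycans, fell 7.19-fold from 4392 and 4552 to 581 and 666 (log2 -2.85 ± 0.13 SE, adjusted p = 8.98e-15). It read 958 and 971 with IFNγ alone and 3615 and 2691 with opsonised cells alone, so the combined arrays were the lowest of the 8. The sialyltransferases St3gal5 and St6galnac4 rose, St3gal5, which makes ganglioside GM3, 4.99-fold from 585 and 685 to 3182 and 3134 and St6galnac4 4.53-fold from 413 and 403 to 1979 and 1729. Lhfpl2, a tetraspan membrane protein, fell 6.06-fold from 6806 and 6950.4 to 1134 and 1137, slightly above its 910.5 and 925 with IFNγ alone, and opsonised cells alone left it at 7303 and 7919.6. Ypel3, a small zinc-binding protein linked to senescence, fell 5.83-fold from 6299 and 7260.2 to 1169 and 1151, and Sesn1, a p53 target that restrains mTORC1, 5.58-fold from 4505 and 4436 to 779.6 and 823. For Ypel3 and Sesn1 each stimulus alone gave an intermediate level, 2245 and 2102 and 1425 and 1627 with IFNγ and 3590.1 and 4025 and 1942 and 2213 with opsonised cells. The palmitoyltransferase Zdhhc14 showed the same steps, 1368 and 1578 unstimulated, 462 and 491 and 603 and 675 with the single stimuli and 271 and 249 with both (5.65-fold lower).

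Of 23 growth-restraint and FOXO target genes 9 were lower and 7 higher. Besides Ypel3 and Sesn1, Gadd45a, a stress-induced partner of PCNA, fell 2.44-fold and Tsc22d3, the glucocorticoid-induced leucine zipper, 2.23-fold. Their relatives Gadd45g and Gadd45b rose 3.41-fold (1001 and 923 to 3054 and 3522) and 2.6-fold (338 and 352 to 928 and 869.8), and Btg1, an antiproliferative factor, 1.75-fold.

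Several receptors and lipid enzymes were among the falls. Lpar6, a receptor for lysophosphatidic acid, fell 4.77-fold from 3163 and 3185 to 733 and 604, Htr2b, a serotonin receptor, 3.7-fold from 1142 and 1142 to 302 and 315, and Cxcr4, the receptor for the marrow chemokine CXCL12, 3.69-fold from 1024 and 899 to 242 and 279. Cx3cr1, the fractalkine receptor, fell 2.96-fold from 696 and 623 to 246 and 202. Htr2b, Cxcr4 and Cx3cr1 were low with IFNγ alone too (means 275, 300.0 and 230.1), differing from both stimuli by log2 0.16 ± 0.12, -0.21 ± 0.13 and -0.05 ± 0.13 SE, not called. Cerk, ceramide kinase, fell 3.88-fold from 7080.5 and 6987 to 1799 and 1822, below 4206 and 3705 with IFNγ and 5065 and 4461 with opsonised cells, and Daglb, a lipase that makes the endocannabinoid 2-arachidonoylglycerol, 3.66-fold from 4582 and 4461 to 1228 and 1240.0. Hpgds, which makes prostaglandin D2, fell 2.5-fold from 1133 and 1099.6 to 448 and 445. The organic anion transporter Slco2b1 fell from 718 and 795 to 203 and 161, a pair with 1 array under the floor, and Slc46a3, of lysosomes, fell 4.00-fold (2988 and 3382 to 809 and 782). Tmem154, a membrane protein, fell 4.13-fold.

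Several regulators of the actin skeleton and of membrane traffic were among the falls. Arhgap24, which switches off Rac, fell 4.63-fold from 2229 and 2191 to 461 and 494, and Arap3, an Arf regulator, 3.88-fold from 1895 and 1603 to 433 and 465. Agap1, another Arf regulator, fell 3.73-fold from 805 and 901 to 224 and 233. Arap3 with IFNγ alone read 479 and 420.2, a log2 difference of 0.00 ± 0.12 SE from both stimuli. Rgs1, which quenches G protein signals, rose 2.89-fold. Nav1, a microtubule-binding protein, fell 3.91-fold by its brightest probe (2219 and 2029 to 503 and 586), while its probes spanned log2 -1.97 to 0.11. Probes disagreed in size for other genes too, as in Sla above, Ypel3 (-2.54 to -0.25), Arhgap24 (-2.21 to -0.42) and Daglb (-1.87 to -0.33). Among the rises they did so in Cd40 (1.14 to 5.82), Gbp2 (0.82 to 5.44) and Il1rn (0.62 to 3.39).

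Most measured genes of mitosis, DNA replication and repair fell. Of 33 mitosis and cytokinesis genes 28 were called lower, with a median log2 difference of -1.05. Of 36 DNA replication genes 30 were lower (median -0.71), and of 20 repair genes 15 (median -0.63). Anln, which anchors the cytokinetic ring, fell 3.79-fold from 2267 and 2181 to 573 and 602, Ncaph, a condensin subunit, 3.36-fold from 1641 and 1427 to 456 and 454, and Prc1, which bundles the midzone spindle, 3.1-fold from 5768 and 5693 to 1719.8 and 1985. Cdc20, whose promoter is printed above, fell 3.1-fold from 2243 and 2694 to 759.7 and 825. In S phase, thymidine kinase Tk1 fell 3.09-fold from 1690.4 and 1726 to 491 and 624, the helicase subunits Mcm4 and Mcm5 3.04- and 2.6-fold, and Rrm1, of ribonucleotide reductase, 2.68-fold. The mismatch repair gene Msh6 fell 3.58-fold from 1002 and 1059.6 to 315 and 263, the checkpoint adaptor Clspn 2.94-fold and Parp1 2.54-fold. A fall in these genes in a whole culture does not say whether fewer cells were cycling or each cycling cell held less of the RNA.

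Against IFNγ alone 24 of the 33 mitosis genes, 24 of the 36 replication genes and 14 of the 20 repair genes were lower with both stimuli, and against opsonised cells alone 24, 22 and 10. Of all features 7.45% and 16.2% were lower in these comparisons. Higher than with opsonised cells alone were 1 replication gene and 1 repair gene. The median log2 difference of the mitosis genes was -0.65 against IFNγ alone and -0.63 against opsonised cells alone. Anln read 1473 and 1445 with IFNγ alone, 1642 and 1434 with opsonised cells alone and 573 and 602 with both. Mcm4, a subunit of the replicative helicase, read 2695 and 2806, 2198 and 1884 and 1174 and 1101 in the same order.

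Among histone genes, most of which are transcribed in S phase, the falls that could be measured were mainly in the H2A family. Of 38 histone genes 16 were called lower. They included 8 of 11 replication-dependent H2A genes (median log2 -1.47) and 5 of 8 such H2B genes (median -0.39). The 7 H4 and 5 H3 genes of that kind lay between log2 -0.26 and 0.17, with 0 called by limma and 1 (an H4 gene) at an unadjusted p under 0.05. In the dimmest bin of all features only 1 was called at least 2-fold lower. Whether the H3 and H4 probes were bright enough to show a fall like that of H2A was not tested. The H2A genes H2ac15, H2ac12 and H2ac7 fell 3.56-, 3.34- and 3.12-fold. On the arrays H2ac15 read 13786 and 12682 unstimulated, 10748 and 10336 with IFNγ alone, 9121 and 8095 with opsonised cells alone and 3585 and 3840.5 with both. H2ac12, the gene of the printed promoter with 3 CCAAT boxes, read 10905 and 11511, 9541 and 9193, 8166 and 7339.6 and 3140.0 and 3578. In both genes the combined arrays were the lowest pair of the 4 and did not overlap any other.

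Regulators of the cycle did not move in a single direction. Of 26 E2F, cyclin and inhibitor genes 11 were lower (7 with a floor of 2 times the intensity, where fewer genes are tested) and 5 higher. Of all features 20.6% were lower and 14.5% higher, so the higher share was near that of all features. The activating factors E2f1 and E2f2 fell 1.78- and 1.8-fold, the kinase Cdk2 2.15-fold from 2216 and 2185 to 877 and 1192, and the inhibitor Cdkn2c 2.67-fold from 1822 and 1906 to 719 and 678. Cdkn1a, the inhibitor p21, rose 2.26-fold from 2903 and 2877 to 6172 and 6897, above both single stimuli (4252 and 3252, adjusted p = 0.000107 and 4.04e-08). The cyclin D genes Ccnd1 and Ccnd2 rose, from 4427 and 4318 to 6119 and 6529.9 and from 217 and 225 to 370.0 and 358, while the G1 cyclins Ccnd3 and Ccne2, named after their values were seen, were called lower by log2 -0.35 and -0.44. Ccnd1 had reached 12780.3 and 14909.6 with IFNγ alone, above its level with both stimuli (adjusted p = 2.98e-07). Among chromatin genes, the S phase maintenance methyltransferase Dnmt1 fell 1.89-fold, Ezh2, of the Polycomb complex, 2.1-fold and Hmgb2 2.37-fold.

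**Figure D5:**
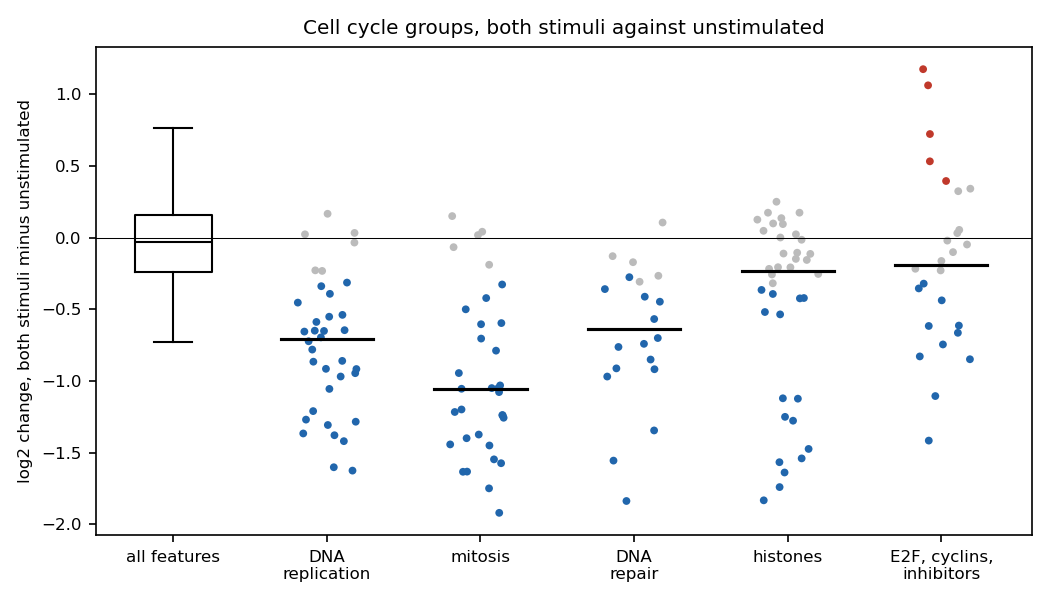
Log2 difference between both stimuli and unstimulated (vertical) for each measured gene of 5 groups, coloured red where called higher, blue where called lower and grey otherwise, with a bar at the group median and, at the left, a box for all features (quartiles, with whiskers at percentiles 5 and 95). The mitosis, replication and repair groups lie almost wholly below 0 with medians of -1.05, -0.71 and -0.63, and the histone genes form a lower cluster and a cluster about 0.

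Of 23 immediate-early and dual-specificity phosphatase genes 9 were higher and 4 lower at this 6 h time point, and of 8 RNA decay genes 1 was higher and 3 lower. Of all features 14.5% were higher and 20.6% lower. Zfp36 (tristetraprolin), which destabilises cytokine mRNAs, rose 5.19-fold from 1198 and 1293 to 6129 and 6806, and its relative Zfp36l1 fell 3.56-fold from 7511 and 6973 to 2053 and 2018. Zfp36l1 stood at 2440.4 and 2511 with opsonised cells alone and 5363 and 5986 with IFNγ alone. Dusp6, a phosphatase that ends ERK signals, fell 3.08-fold from 2524 and 2240.1 to 798 and 744, and IFNγ alone gave 746 and 868. Junb, an AP-1 subunit, rose 2.44-fold, and Cebpb, a factor of inflammatory myeloid genes, 2.28-fold from 3985 and 3807 to 7855 and 10015. Dbp, a factor under direct clock control, went from 2202 and 2035 to 615 and 552 (3.63-fold lower), with 862 and 822 and 1072 and 869.8 under the single stimuli, and Nfil3, which opposes it on the same sites, rose 2.58-fold. Of 14 clock genes 7 were lower (4 without unstimulated replicate 1) and 1 higher.

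The general machinery of the cell moved by less. Splicing factors were lower in 13 of 26 genes (median log2 -0.30), with Hnrnpl the largest fall at 1.7-fold. That count was 7 under cyclic loess and 8 without replicate 2 of both stimuli. Cytosolic ribosomal proteins were lower in 9 of 30, among them Rpl28 at 1.38-fold, and the count was 5 under cyclic loess, 14 with housekeeping centring and 3 without unstimulated replicate 1. Rpl28 itself was not called without that array (adjusted p = 0.0527). Subunits of oxidative phosphorylation were lower in 9 of 54 and higher in 2, near or under the shares of all features, and the lower count was 3 under cyclic loess, 14 with housekeeping centring and 4 without replicate 1 of both stimuli. Lysosome and V-ATPase genes had 5 of 41 higher, led by the protease Ctsc (2.24-fold from 5653 and 6172 to 13470.5 and 12969), and 4 lower, neither above the shares of all features (14.5% and 20.6%). The higher count was 3 without replicate 2 of both stimuli and 3 with the smaller housekeeping set, and the lower count lay between 1 and 8 over the alternatives.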

How the data were processed

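RNA of the 8 samples was isolated with Qiagen RNeasy and DNase, amplified to biotinylated cRNA and read on Illumina MouseRef-8 arrays, per the labels' protocols. The submitters' processing notes name GenomeStudio. The deposited intensity values hold 25697 probes. Their sorted values differ by at most 0.960% between arrays, so they are quantile-normalized, and no background subtraction shows in them. The non-normalized table was not used, since the names of its 16 per-sample columns match no array label. Probes were named through the platform annotation: 23978 had 1 symbol and 1719 none, and 23962 matched RefSeq by Entrez ID.

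Intensities were taken to log2. The floor of 200.0 is the background mode (171.8) plus 1.64 SD of the values below it. Probes above it on both arrays of some group were kept, and the brightest probe stood for its gene. A fit of 4 group means over all 8 arrays used limma 3.58.1 in R 4.3.3 with eBayes and its trend option, which raised the residual degrees of freedom from 4 to 22.7 by moderation. P-values had Benjamini-Hochberg adjustment over 9356 features per comparison. Means are geometric. "At least" marks a fold against the floor where a group lay at or under it on both arrays. For arrays, 2 a group limit the precision.

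The same replicate number did not pair arrays: their deviations correlated at -0.04 to 0.04, with 0 of 6 pairs above 0.1. Named are the 25 largest increases and 25 largest decreases called without overlap, and up to 4 called members per direction of each gene list. These lists, the groups and the rule were chosen with earlier results of these data known. Lists are described by counts and medians, with no set test. The alternatives were other floors, normalizations, background corrections, probe rules, arrays fitted, the replicate block and each array left out.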

Additional observations from a re-analysis of the deposited data

How the results depend on the processing

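Over the alternatives, the comparison of both stimuli with unstimulated cells gave 2471 to 3409 called features as each array was left out, 2968 of 18312 without the filter on dim probes, 2638 of 4825 with a floor of 2 times the intensity, 3143 under cyclic loess, 3338 with centring on 8 housekeeping genes, 3264 after normexp and 3161 with only the 4 arrays compared. Centring on 5 housekeeping genes, without B2m, Gapdh and Pgk1 (members of other gene lists too), was chosen after seeing the data and gave 2723. The replicate block gave 3265, and it moved no count by over 1.5 times. Normexp raised the counts at least 2-fold lower from 211 to 325 against unstimulated, from 42 to 87 against IFNγ alone and from 103 to 183 against opsonised cells alone. Against IFNγ alone, 341 to 650 features were higher and 384 to 756 lower as each array was left out, with the lowest counts without replicate 1 of IFNγ alone (main 604 and 697). Against opsonised cells alone, 2366 were lower with housekeeping centring (main 1518), and the smaller housekeeping set gave 677 higher there (main 1059) and 395 higher against IFNγ alone (main 604). The cause was not tested. Centring on housekeeping genes moved the share of higher calls from 41.4% to 33.0%. Over the 364 genes the naming rule admits and every alternative, a gene lost its call in 223 cases and its direction reversed in 0. No scaling moved the median of all features by over 0.1. Few dim probes passed 2-fold in either direction, and 2 arrays a group limit every test.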

Other observations

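Stress genes of the unfolded protein and amino acid responses were higher in 8 of 20 and lower in 2. Nupr1, a stress-induced chromatin protein, rose 2.84-fold from 553 and 643 to 1674 and 1708, and Atf3, a feedback factor of inflammatory genes, 2.77-fold from 688 and 680.0 to 1789 and 2012. Ppp1r15a, which restarts translation after stress, rose 2.01-fold. Herpud1, of the degradation pathway of the endoplasmic reticulum, fell 1.61-fold from 3071 and 3272 to 2005 and 1926, and Slc7a5, an importer of large amino acids, 1.5-fold from 1076 and 919 to 663 and 659.7. Slc7a5 read 1435 and 1271 with IFNγ alone and 1419 and 1045 with opsonised cells alone, so the pair with both stimuli was the lowest of the 4 groups.

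Among solute carriers 11 of 26 were higher and 7 lower, where 14.5% and 20.6% of all features were. Slco3a1, an organic anion transporter, rose 5.49-fold from 206 and 202 to 1130.2 and 1111, and its mean with IFNγ alone was 1184. Slc6a8, the creatine importer, fell 1.84-fold, and Slc38a2, an importer of small neutral amino acids, 1.67-fold. Of the complement genes 2 of 9 were higher and 1 lower, with C4b up from 212 and 175, 1 array of which lay under the floor, to 273 and 304, and the C5a receptor C5ar1 1.59-fold down (293 and 372 to 201 and 214). Of the called features without a gene name, 113 were higher and 139 lower.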
